A study of Mus musculus with 54 samples.

Results

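The 53 genes described here encode homeodomain and paired-box transcription factors that lie outside the Hox clusters and are known targets of Polycomb repressive complex 2 (PRC2) in stem cells. They were taken from a list of names by gene symbol, and all 53 were found among the 55487 genes of the deposited count tables. The genes fall into the paired-type, sine oculis (Six2, Six3, Six4), LIM, DLX, NK-like (MSX, BARX, HHEX), NKX, Iroquois (IRX), MEIS/PBX/TGIF, axial (CDX, GBX, EN, EMX, EVX), PAX and POU families.

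The study compared mouse embryonic stem cells that lack a PRC2 subunit and carry a PiggyBac transposon with or without a copy of that subunit. In the Ezh2 series all lines were Ezh1-/-:Ezh2-/-, and the transposon was empty (EV), encoded Ezh2 with the substitutions K510R, K514R and K515R (amKR), or encoded unchanged Ezh2 (WT). In the Suz12 series all lines were SUZ12-/-, and the transposon was empty (EV), encoded a SUZ12-deltadim mutant (ddim) or encoded unchanged SUZ12 (WT). "WT" therefore means a rescued knockout line in both series, and whether a line is a single clone was not given in the sources used here. Each line was sampled on day 0, in medium with serum, LIF and the inhibitors CHIR99021 and PD0325901, and after 1 and 4 days in 0.1 µM retinoic acid without LIF and the inhibitors. Each of the 18 groups had 3 libraries, 54 in all. The labels do not say that these came from separate cultures, so p-values measure the spread between these libraries, which may be technical.

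PRC2 trimethylates lysine 27 of histone H3 through its catalytic subunit EZH2 or EZH1, and SUZ12 holds the complex together. In embryonic stem cells the mark covers many CpG-rich promoters of developmental regulators, which are transcribed at low levels until differentiation. Homeodomain factors are prominent among these targets: they bind DNA through a helix-turn-helix domain and specify axial position, organ fields and neuronal subtypes, and retinoic acid is a standard signal for inducing many of them in culture.

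Promoter windows are shown for members whose changes on day 0 are set side by side below: Six3, Lhx2 and Barx1 were called in opposite directions in the EV lines of the Ezh2 and Suz12 series, and Meis1 in the same direction. Each window runs from 250 bases before to 50 bases after the annotated start (RefSeq, GRCm38.p6), in the direction of transcription, with CpG dinucleotides in capitals. The printed start differs from the outer end of the gene in the annotation used for positions by 7226 bases for Six3, and by at most 38 for the other 3 genes. Six3, at chr17:85620584-85620883 on the plus strand, held 14 CpG; Lhx2, at chr2:38339031-38339330 on the plus strand, held 34; Barx1, at chr13:48662786-48663085 on the plus strand, held 50; and Meis1, at chr11:19018920-19019219 on the minus strand, held 15.
Six3: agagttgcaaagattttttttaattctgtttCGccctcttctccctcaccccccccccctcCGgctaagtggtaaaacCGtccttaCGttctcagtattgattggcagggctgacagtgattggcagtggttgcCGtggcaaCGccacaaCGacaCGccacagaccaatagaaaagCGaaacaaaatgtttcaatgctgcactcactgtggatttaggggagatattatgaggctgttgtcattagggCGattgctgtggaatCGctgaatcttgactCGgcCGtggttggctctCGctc
Lhx2: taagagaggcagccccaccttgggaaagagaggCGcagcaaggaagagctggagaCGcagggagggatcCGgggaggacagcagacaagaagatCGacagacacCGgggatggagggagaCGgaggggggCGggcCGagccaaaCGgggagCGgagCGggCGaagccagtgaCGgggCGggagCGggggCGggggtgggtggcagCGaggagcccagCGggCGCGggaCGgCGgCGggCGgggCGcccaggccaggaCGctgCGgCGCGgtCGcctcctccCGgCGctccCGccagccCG
Barx1: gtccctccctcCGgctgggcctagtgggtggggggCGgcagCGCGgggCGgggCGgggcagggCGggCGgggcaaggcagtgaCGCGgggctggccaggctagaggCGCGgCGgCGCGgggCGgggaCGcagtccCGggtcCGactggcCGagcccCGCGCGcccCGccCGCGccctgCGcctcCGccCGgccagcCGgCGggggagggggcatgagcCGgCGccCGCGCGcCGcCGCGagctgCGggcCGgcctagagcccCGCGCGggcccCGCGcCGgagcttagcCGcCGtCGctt
Meis1: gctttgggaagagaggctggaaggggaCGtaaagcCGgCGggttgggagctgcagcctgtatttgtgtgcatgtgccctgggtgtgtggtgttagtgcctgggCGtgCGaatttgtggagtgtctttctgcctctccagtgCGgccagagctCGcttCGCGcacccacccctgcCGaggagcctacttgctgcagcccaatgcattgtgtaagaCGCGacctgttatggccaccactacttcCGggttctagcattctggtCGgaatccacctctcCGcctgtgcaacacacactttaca
Of the 53 members, 39 matched a RefSeq window. The 14 others were Pitx1, Lhx5, Dlx3, Dlx4, Dlx5, Dlx6, Irx1, Irx5, Irx6, Pbx3, Cdx1, En2, Mixl1 and Pax3. The members' windows held a median of 23 CpG (range 6 to 57), against a median of 7 over the windows of 27025 genes, and their median GC content was 61.7%, against 52.7%. At least 10 CpG were present in 35 of the 39 windows (89.7%), against 43.9% of all genes, and the exceptions were Lhx9, Nkx2-5, Pax8 and Prrx1. The windows of Meis2, Dlx1, Nkx2-5, Pax9, Lhx9, Six3 and Nkx2-2 start 1220 to 7841 bases from that annotated gene end, and the others at most 493 bases from it. The hexamer AGGTCA and its variants, namely GGGTCA as well as the form GGTTCA, which form the binding sites of retinoic acid receptors when repeated in tandem, were searched on both strands. A tandem pair spaced 2 or 5 bases apart occurred in 0 of the 39 windows, against 0.244% of all genes, and a single hexamer in 9 (23.1%), against 34.4%. No match says only that these letters are absent from these windows.

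Libraries held 4223028 to 5111007 counts on genes in the Ezh2 series and 3801446 to 4462441 in the Suz12 series. Levels are given as CPM, the counts scaled to a common library size with TMM factors, and a count of 0 over the 3 libraries of a group allows up to 3 counts, or 0.193 to 0.269 CPM depending on the group. Intervals cover counting error only, and such limits cover that of the group at 0 alone. A fold given as "at least" sets the group at 0 at 3 counts and takes the count of the other group as exact. Such a fold is therefore not a confidence bound. Within each series all 27 libraries entered a single edgeR quasi-likelihood fit, and a gene was called where its p adjusted over all genes tested (Benjamini-Hochberg) was under 0.05. The filter on low counts kept 14086 genes, 41 of them members, in the Ezh2 series and 14442 genes, 44 of them members, in the Suz12 series. Dlx1, Dlx4, Emx1, Irx6, Lhx5 and Nkx2-2 were tested in neither. The 12 members left out of the Ezh2 fit averaged at most 2.19 CPM in their highest group, and the 9 left out of the Suz12 fit at most 2.99 CPM. A member that passed the filter because of the group where it is high had to differ, so counts below run over members tested and say nothing of the rest. Counts of marker genes and cofactors run over whole lists, so a gene without a call may be untested. In the Ezh2 series 7 of 10 fibroblast and feeder, 8 of 9 trophectoderm and 9 of 11 neural markers were tested. The same fit tested 3 of 7 mesoderm markers and 21 of 25 homeodomain cofactors.

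**Figure D1:**
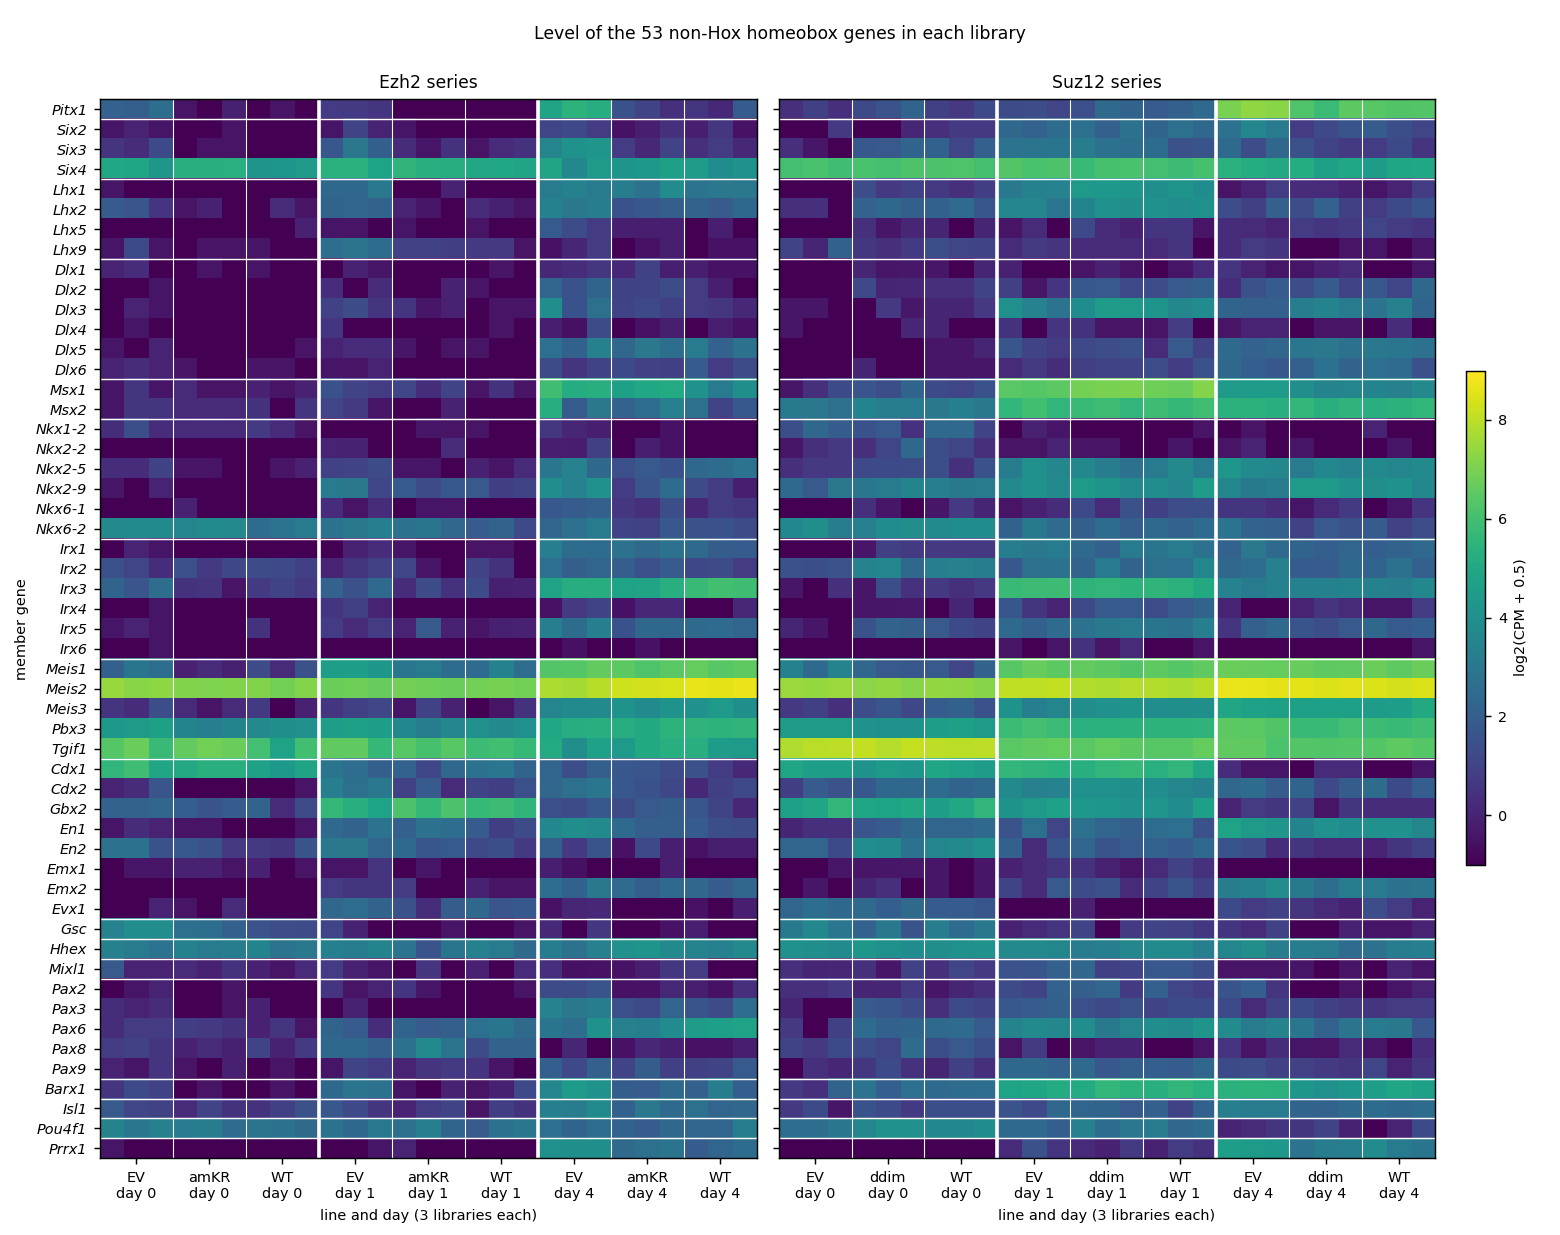
Level of each of the 53 members in each library, as log2(CPM + 0.5) by colour. Rows are genes in the order of the member list, with a line wherever the family changes, so some families are split. Columns are libraries, 3 per line and day, with the Ezh2 series on the left and the Suz12 series on the right. In WT cells of the Ezh2 series 16 members had no count on day 0 and 4 on day 4, while in WT cells of the Suz12 series 2 had none on day 0 and 1 on day 4. Meis2, Pbx3, Six4 and Tgif1 were among the members with counts in every library.

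The deleted genes were checked with the 3′ counts. Suz12 averaged 68.1 ± 4.97 CPM in EV, 461 ± 26.9 in ddim and 439 ± 8.62 in WT cells of the Suz12 series on day 0 (SD, n = 3 each). It was also lowest in EV on days 1 and 4, but the gap was smaller. Suz12 averaged 52.9 ± 0.363 CPM in EV, 113 ± 2.14 in ddim and 97.1 ± 2.38 in WT on day 1. On day 4 it averaged 31.5 ± 1.47 CPM in EV, 57.5 ± 8.43 in ddim and 56.7 ± 8.29 in WT. Ezh2 counts were not lower in EV on days 0 and 4. On day 0 they averaged 183 ± 16.9 CPM in EV, against 117 ± 4.15 in amKR and 88.3 ± 0.66 in WT. On day 4 the means were 128 ± 22.6 CPM in EV, 30 ± 3.53 in amKR and 33.1 ± 2.74 in WT. On day 1 Ezh2 was lower in EV, at 192 ± 7.84 CPM, against 271 ± 11.8 in amKR and 231 ± 3.33 in WT. The 3′ reads need not cover the deleted part. Ezh1 averaged 9.29 ± 1.58 CPM in EV, 0.289 ± 0.33 in amKR and 0.148 ± 0.257 in WT on day 0, although all these lines are labelled Ezh1-/-. The EV line of the Ezh2 series thus differed from the other lines in Ezh1 reads as well as in the transposon. Naive pluripotency markers, which define these stem cells, were all present: each of the 12 had counts in every day 0 group, and all 12 fell by day 4 in the WT lines of both series. All 14 primitive endoderm markers rose by day 4 in WT cells of the Ezh2 series and 13 of 14 did in WT cells of the Suz12 series, with all 8 retinoic acid response genes in both.

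In the Ezh2 series, more of these genes were called higher than lower in EV cells against WT cells on each day. On day 0, 14 of the 41 members tested were higher and 0 lower in EV, where 29.9% of all genes were called, 17.4% higher and 12.5% lower. The 14 covered the paired-type (Pitx1, Gsc), sine oculis (Six3), LIM (Lhx2, Lhx9), Iroquois (Irx3), MEIS/PBX (Meis1, Meis2, Pbx3), NKX (Nkx6-2), axial (Cdx1, Cdx2, En2) and NK-like (Barx1) families, and none of the 3 DLX or 4 PAX members tested. A fit of the day 0 EV and WT libraries alone called 8 members. In these bulk samples, fewer cells that transcribe a gene and less RNA per cell cannot be told apart.

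Pitx1, which specifies hindlimb identity and the anterior pituitary, had 16, 15 and 24 counts in the EV libraries on day 0, against 0, 1 and 0 in the WT libraries. The counting ratio was 58.1 (95% exact interval 10.0 to 2340), with an edgeR adjusted p of 2.19e-05. Six3, a forebrain and eye factor, had 4, 3 and 8 counts in EV and 0, 0 and 0 in WT. All 3 EV libraries held Six3 counts and no WT library did, so the level was at least 5.3-fold higher in EV when WT is set at 3 counts over the group (edgeR adjusted p = 0.00149). Barx1, which patterns the stomach and teeth, had 4, 8 and 6 counts in EV, against 0, 1 and 0 in WT, a ratio of 19.0 with an interval of 3.0 to 792 (edgeR adjusted p = 0.00691).

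Better-covered members moved less. Meis1, a TALE-class cofactor of Hox proteins, had 3.65, 6.83 and 5.65 CPM in EV, against 2.00, 0.682 and 2.26 CPM in WT, and no EV library overlapped a WT library. Its log2 change was 1.69 ± 0.35 (SE; edgeR adjusted p = 0.000539). Gsc, an organizer gene of the early embryo, averaged 13.1 ± 2.52 CPM in EV and 2.18 ± 0.235 in WT (log2 change 2.58 ± 0.46, edgeR adjusted p = 0.000111). The smallest called change was that of Meis2, which averaged 161 ± 14.5 CPM in EV, against 131 ± 13.9 CPM in WT (log2 change 0.29 ± 0.10, edgeR adjusted p = 0.0215), a call that was lost at 5 of 12 settings, among them without EV replicate 1 or WT replicate 2. The Cdx2 call was lost without EV replicate 3, which held 11 of its 16 EV counts. En2 was the called member whose EV and WT libraries overlapped: it had 25, 26 and 10 counts in EV and 5, 4 and 11 in WT, and its call was lost without EV replicate 1 or 2 or WT replicate 1 or 2. The Lhx9 call rested on EV replicate 2, which held 8 of the 10 EV counts, and was lost without it and at 6 further settings of 11.

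The median log2 change of the 41 members tested was 1.64, or 0.65 with groups at 0 counts set at 3 counts, against 0.042 over all genes tested. Primitive endoderm markers differed too on day 0, with 7 of 14 higher and 2 lower in EV. Their summed level was 459 to 581 CPM in EV and 522 to 655 CPM in WT, with Cubn at 0 in the WT libraries. Of 10 fibroblast and feeder markers 2 were higher and 0 lower, with a summed level of 11.2 to 13.9 CPM in EV, where 4 were at 0, and 1.36 to 2.49 CPM in WT, where 6 were at 0. The part of either list in the members' changes was not tested.

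On day 1, 18 of the 41 members were higher and 0 lower in EV, where 21.1% of all genes were called, 13.5% higher and 7.63% lower. Lhx1, a head organizer and kidney factor, had 20, 21 and 31 counts in EV and 0, 0 and 0 in WT. Every EV library stood apart from every WT library, and the level was at least 25-fold higher in EV (edgeR adjusted p = 9.5e-07). Pitx1 had 5, 5 and 4 counts in EV, against 0, 0 and 0 in WT, at least 4.9-fold higher (edgeR adjusted p = 0.00665). Lhx2, which acts in eye and forebrain formation, had 18, 19 and 17 counts in EV and 3, 2 and 1 in WT (log2 change 3.17 ± 0.54, edgeR adjusted p = 7.15e-05).

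The other day 1 calls included all 4 NKX members tested: Nkx2-5 (heart), Nkx2-9 and Nkx6-2 (ventral neural tube) and Nkx6-1 (motor neurons and pancreatic beta cells). Nkx6-2 averaged 7.86 ± 1.63 CPM in EV and 3.01 ± 1.16 in WT. Nkx2-9 averaged 5.70 ± 3.52 CPM in EV and 1.93 ± 0.872 in WT, with overlapping libraries. Nkx6-1, with 7 counts in all in EV and 0 in WT, was at least 2.5-fold higher. The calls of Nkx2-5, Nkx6-1 and Nkx2-9 were the least firm, lost at 7 of 11, 6 of 11 and 5 of 12 settings. Of the IRX genes, Irx3 averaged 3.68 ± 1.29 CPM in EV and 0.968 ± 0.914 in WT (log2 change 1.90 ± 0.48, edgeR adjusted p = 0.00436), and of the MEIS/PBX genes, Meis1 and Pbx3 were higher. Pbx3 had 23.2, 25.3 and 24.2 CPM in EV, against 15.7, 12.5 and 15.7 CPM in WT, with no overlap (log2 change 0.73 ± 0.16, edgeR adjusted p = 0.00104). The members' median log2 change was 1.69, or 1.39 with groups at 0 set at 3 counts, against 0.068 over all genes. On this day 13 of 14 primitive endoderm markers were also higher in EV and 0 lower. Their summed level was 976 to 1170 CPM in EV and 769 to 855 CPM in WT, with Foxa2 at 0 in WT. Of 9 trophectoderm markers 4 were higher and 1 lower, at 177 to 209 CPM in EV and 140 to 152 CPM in WT, none at 0. Of 8 retinoic acid response genes 3 were higher and 1 lower, at 82.6 to 88.2 CPM in EV and 44.6 to 60.1 CPM in WT, none at 0. Of 7 mesoderm markers 3 were tested and 1 was higher. The summed level of all 7 was 34.9 to 35.3 CPM in EV, with Msgn1 at 0. In WT it was 15.5 to 18.4 CPM, with Hand2, Foxf1 and Msgn1 at 0. The part of these lists in the members' changes was not tested.

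By day 4, 18 members were higher and 3 lower in EV, where 18% of all genes were called, 9.74% higher and 8.24% lower. Pitx1 had 28.4, 43.6 and 36.6 CPM in EV, against 0.969, 0.591 and 3.25 CPM in WT. The groups did not overlap, and the log2 change was 4.49 ± 0.38 (edgeR adjusted p = 3.91e-09). Six3 had 11.3, 17.0 and 17.9 CPM in EV and 0.775, 1.18 and 0.609 CPM in WT, again without overlap (log2 change 4.13 ± 0.42, edgeR adjusted p = 4.7e-08). Nkx2-9 had 71, 57 and 81 counts in EV and 10, 6 and 2 in WT (log2 change 3.48 ± 0.52, edgeR adjusted p = 2.45e-05).

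Other day 4 rises came from the DLX genes of branchial arch and forebrain development (Dlx2, Dlx3), the MSX genes of tooth, palate and skull (Msx1, Msx2), the midbrain and hindbrain gene En1, the neural crest and muscle gene Pax3, the motor neuron and cardiac progenitor gene Isl1 and the limb mesenchyme gene Prrx1. En1 averaged 13.4 ± 1.42 CPM in EV and 2.50 ± 0.693 in WT (log2 change 2.41 ± 0.30, edgeR adjusted p = 9.37e-07). Dlx3 had 71, 13 and 30 counts in EV, against 6, 5 and 3 in WT. EV replicate 1 held most of the Dlx3 counts, as it did for Msx2, with 182, 17 and 37 counts in EV and 31, 8 and 14 in WT. The Msx2 libraries overlapped, and its call was lost at 5 of 12 settings, among them without EV replicate 1. The day 4 calls of Irx2, Pax3, Isl1 and Lhx2 were lost at 5, 3, 3 and 2 of 12 settings.

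The 3 members lower in EV on day 4 all rose in WT cells between day 0 and day 4. Pax6, a master regulator of eye and neural progenitors, had 6.85, 5.43 and 16.9 CPM in EV, against 22.3, 24.6 and 26.4 CPM in WT, without overlap (log2 change −1.33 ± 0.30, edgeR adjusted p = 0.00213). Irx3, which patterns the neural tube and heart, had 26.6, 37.3 and 36.8 CPM in EV and 53.3, 63.1 and 59.5 CPM in WT (log2 change −0.80 ± 0.22, edgeR adjusted p = 0.00914), a call that was lost without EV replicate 1. Meis2 had 220, 200 and 244 CPM in EV and 404, 382 and 414 CPM in WT (log2 change −0.85 ± 0.09, edgeR adjusted p = 7.29e-08). The members' median log2 change was 1.08, against 0.01 over all genes.

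Trophectoderm markers moved on the same day, with 5 of 9 higher and 2 lower in EV. Their summed level was 1430 to 1910 CPM in EV and 838 to 917 CPM in WT, with none at 0, and their part was not tested. Cdx2, a member that marks trophectoderm as well as the posterior axis, averaged 5.83 ± 1.33 CPM in EV and 1.26 ± 0.632 in WT (log2 change 2.19 ± 0.47, edgeR adjusted p = 0.0014).

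The genes Pitx1, Six3, Lhx2, Nkx6-2, Cdx2, En2 and Barx1 were higher in EV on all 3 days. In all, 28 members were called on at least 1 day, and 13 of those tested were called on none: Six4, Dlx5, Irx1, Irx5, Meis3, Tgif1, Gbx2, Emx2, Evx1, Hhex, Pax8, Pax9 and Pou4f1. Of the members outside the fit, Lhx5 had 15, 11 and 6 counts in EV on day 4, against 0, 2 and 0 in WT, and Pax2 had 10, 11 and 13 counts in EV, against 2, 1 and 4 in WT, with no overlap for either and no test.

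**Figure D2:**
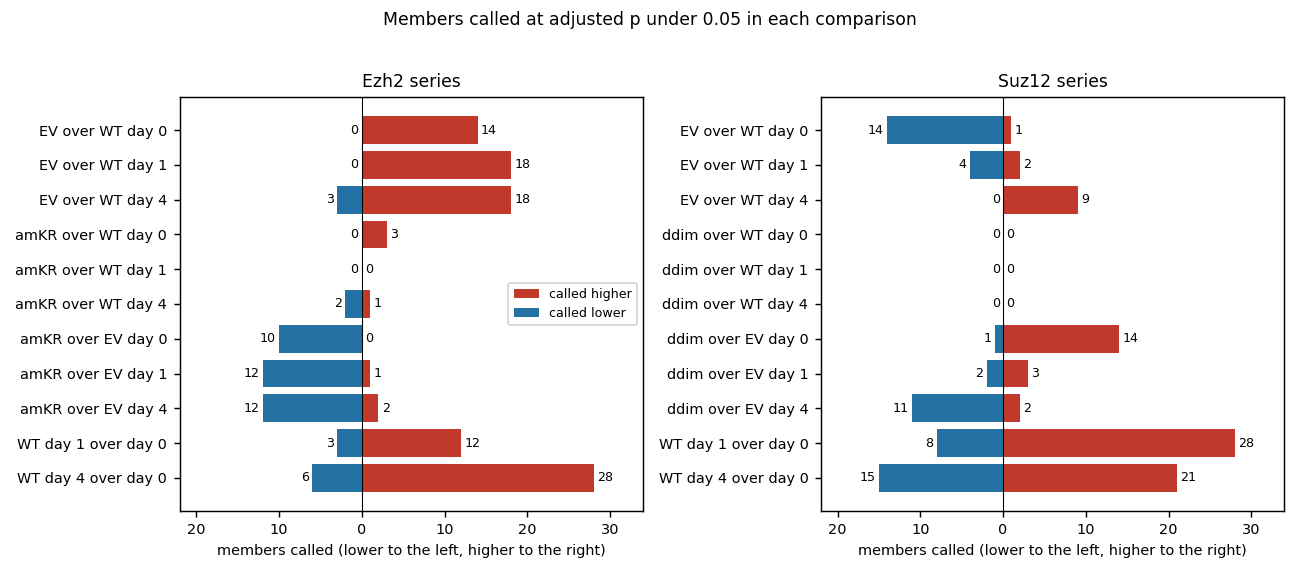
Number of members called in each comparison of the Ezh2 series (left) and the Suz12 series (right); bars to the right count members higher in the group named first and bars to the left members lower. In EV over WT the Ezh2 series had 14, 18 and 18 members higher on days 0, 1 and 4, and 0, 0 and 3 lower. Of all genes, 17.4%, 13.5% and 9.74% were higher on these days. The Suz12 series had 1 member higher and 14 lower on day 0 and 9 higher on day 4. There 5.36% of all genes were lower on day 0 and 3.66% higher on day 4.

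For the Suz12 series the direction on day 0 was the other way. Of the 44 members tested, 1 was higher and 14 were lower in EV than in WT, where 10.8% of all genes were called, 5.44% higher and 5.36% lower. A fit of these 6 libraries alone called 7. The 14 lower members were Six3, Lhx1, Lhx2, Dlx2, Irx1, Irx2, Irx5, Meis3, En1, En2, Pax3, Pax6, Barx1 and Pou4f1. The members' median log2 change was −0.965, or −0.85 with groups at 0 set at 3 counts, against −0.008 over all genes tested.

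Lhx1 had 0, 0 and 0 counts in EV on day 0, against 4, 3 and 5 in WT, at least 4.0-fold lower (edgeR adjusted p = 0.00308). Dlx2 had 0, 0 and 0 in EV and 3, 3 and 6 in WT (at least 4.0-fold lower, edgeR adjusted p = 0.0157), and Irx1 had 0, 0 and 0 in EV and 4, 4 and 4 in WT (at least 4.0-fold lower, edgeR adjusted p = 0.00511). No EV library of the Suz12 series held a read of these 3 genes on day 0, and every WT library held at least 3. The Dlx2 call was lost when EV replicate 1, EV replicate 2 or WT replicate 3 was left out, and those of Meis3 and Pax3 were lost at 4 of 11 settings each.

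En2, Irx2 and Pou4f1 were better covered among the lower members. En2 had 4.26, 4.27 and 1.89 CPM in EV, against 11.6, 12.6 and 17.3 CPM in WT (log2 change −1.98 ± 0.34, edgeR adjusted p = 6.33e-05). Irx2, a partner of Irx1 in its cluster, averaged 2.32 ± 0.162 CPM in EV and 9.18 ± 0.439 in WT (log2 change −1.97 ± 0.39, edgeR adjusted p = 0.000453). Pou4f1, a sensory neuron factor, averaged 6.08 ± 0.822 CPM in EV and 12.9 ± 1.0 in WT (log2 change −1.08 ± 0.29, edgeR adjusted p = 0.00876). For each of the 3 genes all EV libraries lay under all WT libraries. Barx1 had 4, 3 and 15 counts in EV and 18, 20 and 21 in WT, and its call was lost without EV replicate 1 or 2. Tgif1, Meis2 and Six4, the members with the highest levels on this day, were not called.

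Meis1 was the member higher in EV on day 0, with 10.1, 4.81 and 10.5 CPM in EV and 2.95, 1.61 and 3.98 CPM in WT. The EV libraries all lay above the WT libraries (log2 change 1.56 ± 0.30, edgeR adjusted p = 0.000237). Among neural markers, 1 of 11 was higher and 3 were lower in EV on day 0, and their summed level was 142 to 177 CPM in EV and 112 to 135 CPM in WT, with Dcx at 0 in EV. Of the 14 primitive endoderm markers 1 was higher and 3 were lower, with a summed level of 881 to 969 CPM in EV and 741 to 803 CPM in WT and none at 0, and the part of either list was not tested.

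On day 1, 2 members of the Suz12 series were higher and 4 lower in EV, where 8.09% of all genes were called, 3.97% higher and 4.12% lower. Irx3 had 53.6, 57.1 and 58.1 CPM in EV, against 46.6, 42.1 and 33.2 CPM in WT (log2 change 0.47 ± 0.13, edgeR adjusted p = 0.0176). Pbx3 had 55.4, 64.2 and 55.3 CPM in EV, against 43.4, 44.2 and 45.4 CPM in WT (log2 change 0.39 ± 0.10, edgeR adjusted p = 0.00778). The libraries of EV and WT did not overlap for either gene. The changes were small, and the Irx3 call was lost without EV replicate 2 or 3 or WT replicate 3.

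The 4 members lower in EV on day 1 were Lhx1, Dlx2, Msx1 and Barx1. Lhx1 had 34, 44 and 45 counts in EV and 66, 76 and 66 in WT (log2 change −0.73 ± 0.21, edgeR adjusted p = 0.0259). Msx1 had 86.5, 82.4 and 87.7 CPM in EV and 111, 105 and 143 CPM in WT (log2 change −0.48 ± 0.10, edgeR adjusted p = 0.0018). Dlx2 had 6, 1 and 4 counts in EV and 9, 13 and 17 in WT (log2 change −1.76 ± 0.56, edgeR adjusted p = 0.0426). These day 1 calls leaned on single libraries: without EV replicate 2 a single member was called, and without WT replicate 2 the number was 3. Of the 14 primitive endoderm markers, 0 were higher and 9 lower in EV on day 1, with a summed level of 2340 to 2360 CPM in EV and 2890 to 3150 CPM in WT and none at 0, and their part was not tested.

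By day 4, 9 of the 44 members were higher and 0 lower in EV, where 7.4% of all genes were called, 3.66% higher and 3.73% lower. They were Pitx1, Six2, Six3, Msx1, Meis2, Pbx3, Pax2, Barx1 and Prrx1. Six2, which maintains nephron progenitors, had 27, 50 and 37 counts in EV and 14, 9 and 7 in WT (log2 change 1.89 ± 0.37, edgeR adjusted p = 0.000397). Pax2, a kidney and eye factor, had 11, 15 and 4 counts in EV, against 0, 1 and 2 in WT, a ratio of 9.87 with an interval of 3.07 to 50.5 (edgeR adjusted p = 0.00667). The groups did not overlap for either gene, although the Pax2 call was lost without EV replicate 2 or WT replicate 1. The members' median log2 change was 0.305. Over the same libraries 5 of 9 trophectoderm markers were lower and 1 higher in EV, with a summed level of 488 to 553 CPM in EV and 793 to 900 CPM in WT, none at 0. Fibroblast and feeder markers were higher in 4 of 10, with 1590 to 1830 CPM in EV and 1490 to 1640 CPM in WT, and 6 of 14 primitive endoderm markers were lower, with 10700 to 11400 CPM in EV and 11700 to 12300 CPM in WT. The 8 retinoic acid response genes summed to 424 to 510 CPM in EV and 693 to 815 CPM in WT. Sums of the 12 naive pluripotency markers were 364 to 402 CPM in EV and 488 to 505 CPM in WT. For the 11 neural markers they were 152 to 174 CPM and 188 to 206 CPM. The part of these lists was not tested.

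**Figure D3:**
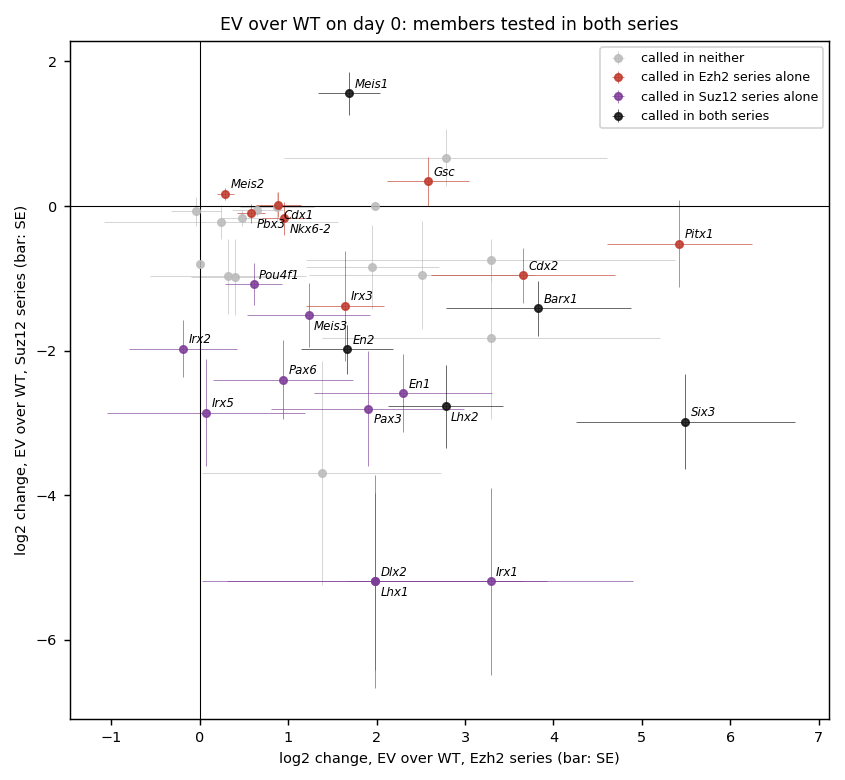
Log2 change in EV over WT on day 0 in the Ezh2 series (horizontal axis) and in the Suz12 series (vertical axis) for the 38 members tested in both, with standard errors as bars. Six3, Lhx2, En2 and Barx1, called in both, lie in the lower right, where EV was higher in the Ezh2 series and lower in the Suz12 series, and Meis1 in the upper right; fitted values of members with a group at 0 counts depend on the fit's prior count.

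Set side by side, EV over WT on day 0 called 4 members in opposite directions in the 2 series. Six3 was higher in EV of the Ezh2 series, as given above, while in the Suz12 series it had 3, 1 and 0 counts in EV, against 14, 6 and 14 in WT (log2 change −2.98 ± 0.66, edgeR adjusted p = 0.00141). Lhx2 had 13, 11 and 4 counts in EV and 0, 3 and 1 in WT of the Ezh2 series (log2 change 2.78 ± 0.65, edgeR adjusted p = 0.00181). Lhx2 had, in the Suz12 series, 3, 3 and 0 counts in EV and 14, 19 and 10 in WT (log2 change −2.77 ± 0.57, edgeR adjusted p = 0.00071). En2 and Barx1 were the other 2, and Meis1 was the member called in the same direction in both. The WT lines themselves differed between the series: Six3, Lhx2, Lhx1, Dlx2 and Irx1 had 0 to 4 counts in all in WT cells of the Ezh2 series on day 0 and 12 to 43 in WT cells of the Suz12 series.

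The difference between the series was fitted in a joint edgeR model of all 54 libraries, a test chosen after the changes had been seen. This model uses 1 dispersion per gene, the spread between libraries beyond counting error, for both sets of libraries. Fitted apart, the common dispersion was 0.00536 for Suz12 libraries, against 0.0192 for Ezh2 libraries. Standard errors and p-values of the joint fit may therefore be too small, which also bears on its counts of genes. On day 0 the EV over WT change differed for 21 of the 47 members in that fit, where 20.1% of all genes did. For all 21 the log2 change, taken with its sign, was higher in the Ezh2 series. It differed for 16 on day 1 (15.9% of all genes), 15 of them higher in the Ezh2 series. On day 4 it differed for 11 (15.4%), 8 of them higher in the Ezh2 series. Higher here does not mean greater in size. Pou4f1 on day 0 changed by 0.56 in the Ezh2 series and by −1.07 in the Suz12 series. Lhx2 on day 0 had a difference of 5.50 ± 0.87 log2 units (edgeR adjusted p = 4.41e-06) and En2 of 3.60 ± 0.63 (edgeR adjusted p = 2.88e-05). The series differ in the deleted genes, the parental lines and the library sets, and these cannot be told apart. Marker levels of WT cells on day 1 differed as well. The 12 naive pluripotency markers summed to 588 to 646 CPM with Suz12 rescue, against 2210 to 2400 CPM with Ezh2 rescue. For the 8 retinoic acid response genes the sums were 1720 to 1820 CPM against 44.6 to 60.1 CPM. Cells compared on day 1 may thus be at unlike stages, and the part of stage was not tested.

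On day 1, Irx3 and Pbx3 were higher in EV of both series, and Lhx1, Msx1 and Barx1 were higher in EV of the Ezh2 series and lower in EV of the Suz12 series. Msx1 on day 1 had 10, 7 and 5 counts in EV and 1, 4 and 1 in WT of the Ezh2 series (log2 change 1.89 ± 0.64, edgeR adjusted p = 0.0353), a call lost at 4 of 11 settings. Barx1 had 20, 30 and 26 counts in EV and 1, 2 and 8 in WT of the Ezh2 series (log2 change 2.82 ± 0.53, edgeR adjusted p = 0.000236). For Barx1 the Suz12 series had 122, 132 and 152 counts in EV and 170, 204 and 193 in WT (log2 change −0.45 ± 0.15, edgeR adjusted p = 0.0438), so the fall was small and its call was lost at 6 of 12 settings.

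By day 4, 5 members were higher in EV of both series: Pitx1, Six3, Msx1, Barx1 and Prrx1. Pitx1 had 128, 163 and 150 CPM in EV and 83.4, 77.8 and 80.7 CPM in WT of the Suz12 series, a log2 change of 0.87 ± 0.12 (edgeR adjusted p = 6.1e-07), against 4.49 in the Ezh2 series. The difference between these changes was 3.62 ± 0.35 log2 units (joint fit, edgeR adjusted p = 4.07e-11). That standard error lay below the 0.38 of the Ezh2-series change alone, so this p may be too small. Six3 had 21, 9 and 19 counts in EV and 5, 8 and 4 in WT of the Suz12 series (log2 change 1.49 ± 0.45, edgeR adjusted p = 0.032), a call lost without EV replicate 1 or 3 or WT replicate 1 or 3.

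Msx1 on day 4 had 59.9, 35.7 and 38.2 CPM in EV and 16.9, 8.48 and 15.4 CPM in WT of the Ezh2 series (log2 change 1.71 ± 0.24, edgeR adjusted p = 5.33e-06). Msx1 in the Suz12 series had 20.7, 21.8 and 22.2 CPM in EV and 10.9, 9.63 and 12.6 CPM in WT (log2 change 0.96 ± 0.17, edgeR adjusted p = 0.000106). All EV libraries lay above all WT libraries in both series. Barx1 had 11.5, 21.6 and 16.7 CPM in EV and 3.68, 8.87 and 3.45 CPM in WT of the Ezh2 series (log2 change 1.63 ± 0.35, edgeR adjusted p = 0.00119), and 41.0, 43.9 and 42.5 CPM in EV and 23.8, 28.7 and 25.1 CPM in WT of the Suz12 series (log2 change 0.72 ± 0.15, edgeR adjusted p = 0.00118). Prrx1 had 15.5, 15.4 and 15.4 CPM in EV and 3.29, 4.34 and 5.28 CPM in WT of the Ezh2 series (log2 change 1.84 ± 0.31, edgeR adjusted p = 0.000185). Prrx1 in the Suz12 series had 23.3, 21.4 and 19.6 CPM in EV and 13.5, 8.46 and 6.97 CPM in WT (log2 change 1.15 ± 0.24, edgeR adjusted p = 0.00123), again with no overlap. Meis2 went opposite ways on day 4, lower in EV of the Ezh2 series and higher in EV of the Suz12 series, where it averaged 402 ± 15.9 CPM in EV, against 345 ± 22.4 in WT (log2 change 0.22 ± 0.07, edgeR adjusted p = 0.0365), and this call was lost at 7 of 12 settings.

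**Figure D4:**
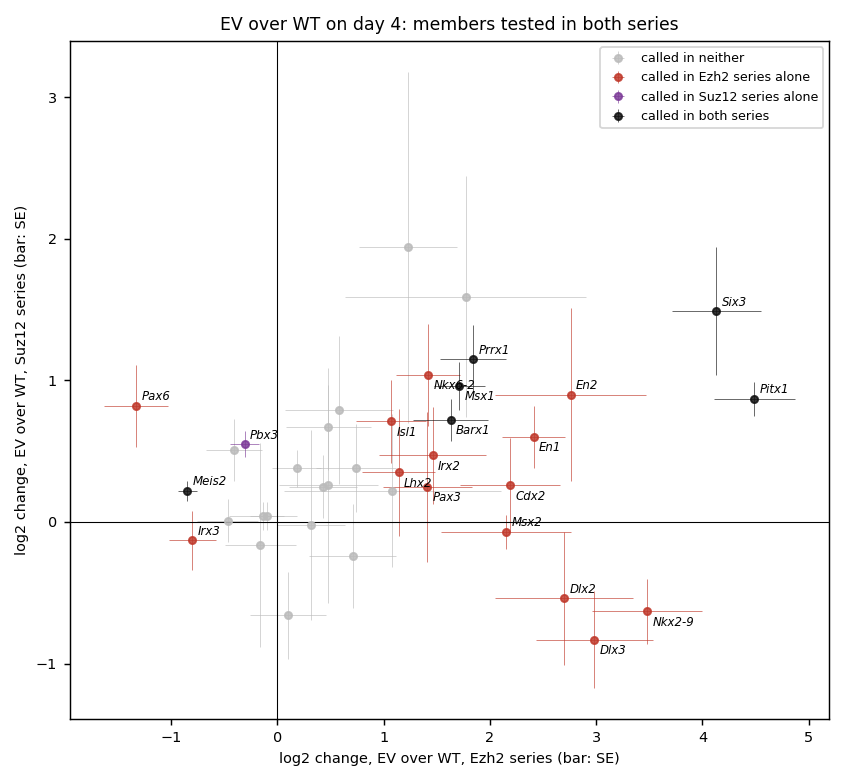
Log2 change in EV over WT on day 4 in the Ezh2 series (horizontal axis) and in the Suz12 series (vertical axis) for the 38 members tested in both, with standard errors as bars. Pitx1, Six3, Msx1, Barx1 and Prrx1 lie in the upper right, higher in EV of both series, and the axes show the wider range of changes in the Ezh2 series.

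The change of the EV effect with differentiation was tested as the EV over WT log2 change on day 4 minus that on day 0. In the Ezh2 series it was lower on day 4 for 4 of the 41 members, near the 12.4% of all genes called (5.13% higher, 7.31% lower), so the count sets the members apart in no way. They were Irx3 (−2.45 ± 0.49), Meis1 (−1.79 ± 0.39), Meis2 (−1.15 ± 0.13) and Pbx3 (−0.90 ± 0.21), each higher in EV on day 0. On day 4 Meis1 had 79.2, 81.8 and 96.1 CPM in EV and 99.8, 84.4 and 92.0 CPM in WT, with overlapping libraries.

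The EV effect in the Suz12 series was higher on day 4 than on day 0 for 15 of the 44 members and lower for 1, where 6.92% of all genes were called. Six3 changed by 4.47 ± 0.80 log2 units (edgeR adjusted p = 0.000138) and Barx1 by 2.12 ± 0.40 (edgeR adjusted p = 0.000362), both lower in EV on day 0 and higher on day 4. Six2 changed by 3.27 ± 0.93 (edgeR adjusted p = 0.023): it had 0, 0 and 4 counts in EV and 3, 4 and 4 in WT on day 0, before the rise on day 4. Irx1 had no count in EV on day 0, so its fitted change is no measure of size, and on day 4 it averaged 5.37 ± 1.78 CPM in EV and 4.12 ± 0.703 in WT. Meis1 was the member whose effect was lower on day 4 (−1.52 ± 0.32, edgeR adjusted p = 0.00118): by then it had 108, 103 and 99.8 CPM in EV and 107, 91.2 and 105 CPM in WT, with overlapping libraries.

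**Figure D5:**
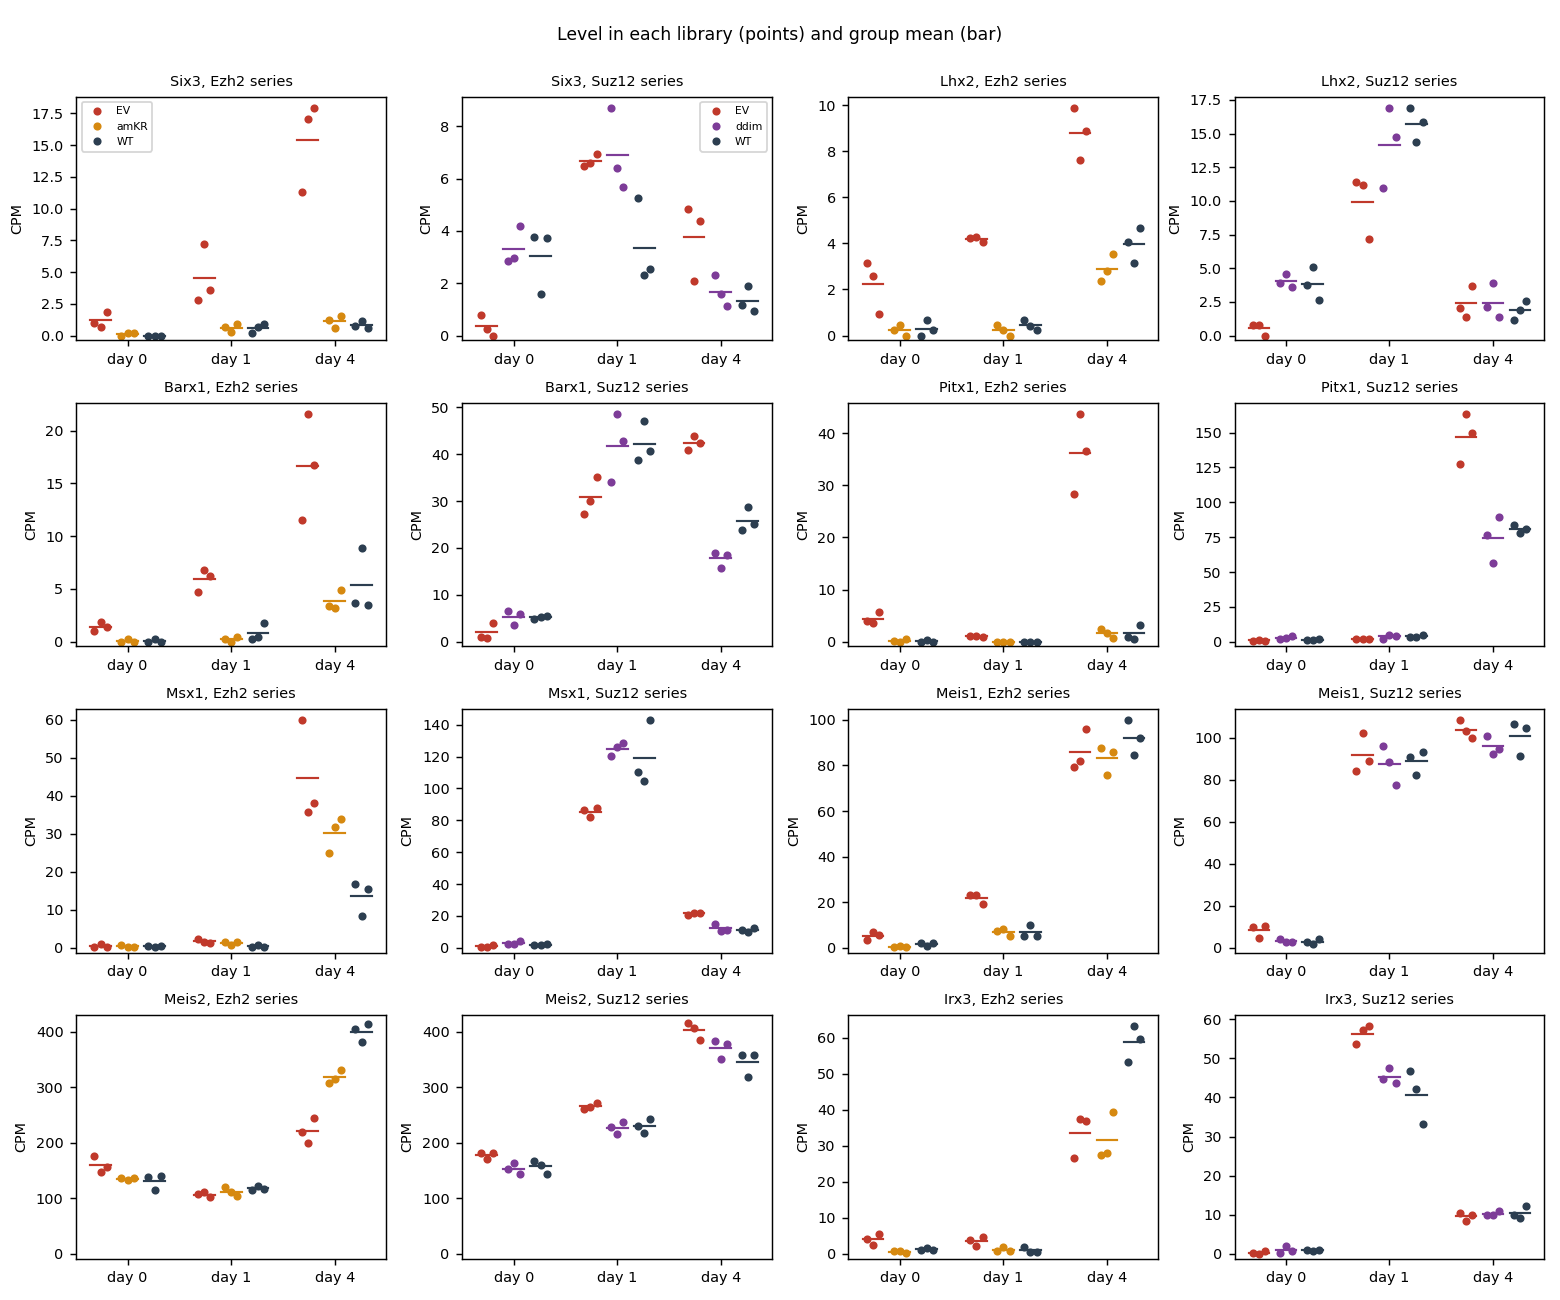
Level in CPM of 8 members on days 0, 1 and 4 in each line of the Ezh2 and Suz12 series; points are single libraries and short bars group means, with EV, the mutant (amKR or ddim) and WT from left to right on each day, and each panel has its own linear axis. Pitx1 and Six3 rose by day 4 in EV of the Ezh2 series and were at most 3.25 CPM in amKR and WT. In the Suz12 series the ddim points overlap the WT points in most panels, but all 3 lie under WT for Barx1 on day 4.

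In the lysine mutant of Ezh2, few members were called against WT. EV and amKR were both set against the same WT libraries, so the 2 sets of changes are not independent. On day 0, 3 of the 41 members were higher in amKR and 0 lower, where 5.1% of all genes were called, 3.01% higher and 2.09% lower. Six4, a factor of muscle development, had 38.9, 37.9 and 40.6 CPM in amKR and 17.4, 18.4 and 20.8 CPM in WT (log2 change 1.05 ± 0.23, edgeR adjusted p = 0.00815). Tgif1, a TALE-class repressor in TGF-beta and retinoid signalling, had 95.1, 116 and 104 CPM in amKR and 64.3, 27.3 and 61.7 CPM in WT (log2 change 1.04 ± 0.29, edgeR adjusted p = 0.0367). Nkx6-2 had 11.4, 13.2 and 12.5 CPM in amKR and 5.34, 6.60 and 7.91 CPM in WT (log2 change 0.90 ± 0.25, edgeR adjusted p = 0.0344). The amKR libraries lay above the WT libraries for all 3 genes, but a single member was called when any amKR replicate or WT replicate 2 was left out.

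On day 1, 0 members were called in amKR over WT by edgeR, and 0 by DESeq2, where edgeR called 2% of all genes (1.37% higher and 0.632% lower), and 7 had an unadjusted p under 0.05, 6 of them higher. On day 4, 1 member was higher and 2 were lower, where 1.63% of all genes were called, 1.17% higher and 0.454% lower. Msx1 had 24.9, 31.7 and 33.8 CPM in amKR and 16.9, 8.48 and 15.4 CPM in WT (log2 change 1.15 ± 0.24, edgeR adjusted p = 0.00944). Irx3 had 27.5, 27.9 and 39.5 CPM in amKR and 53.3, 63.1 and 59.5 CPM in WT (log2 change −0.89 ± 0.22, edgeR adjusted p = 0.0283). Pax6 had 9.75, 9.38 and 13.8 CPM in amKR and 22.3, 24.6 and 26.4 CPM in WT (log2 change −1.15 ± 0.30, edgeR adjusted p = 0.0425).

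The amKR and WT libraries of these 3 genes did not overlap, and each was called in the same direction in EV, whose change was larger for Msx1 (1.71) and Pax6 (−1.33) and smaller for Irx3 (−0.80). The 3 calls rested on few libraries: without WT replicate 2 there were 0, and without amKR replicate 1, 2 or 3 or WT replicate 3 there was 1. Irx3 lies on chromosome 8, and its call was also lost when the median change of each chromosome was subtracted. The change of the amKR effect between day 0 and day 4 was called for 0 of the 41 members by edgeR and by DESeq2, where edgeR called 0.135% of all genes (0.0994% higher, 0.0355% lower), and 6 had an unadjusted p under 0.05.

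Against EV directly, members were mostly lower in amKR: 0 were higher and 10 lower on day 0, where 17.6% of all genes were called (6.48% higher, 11.2% lower). There were 1 higher and 12 lower on day 1 (14.7% of all genes called, 5.33% higher and 9.4% lower), and 2 and 12 on day 4 (10.8%, 5.28% higher and 5.57% lower). Markers of other cell types moved between the same lines. Primitive endoderm markers were lower in amKR for 7 of 14 and higher for 1 on day 0, with a summed level of 462 to 500 CPM in amKR and 459 to 581 CPM in EV and with Cubn and Sox7 at 0 in amKR. On day 1, 12 of 14 were lower and 0 higher, at 675 to 732 CPM in amKR and 976 to 1170 CPM in EV. Trophectoderm markers were lower in amKR for 6 of 9 and higher for 1 on day 1, at 104 to 112 CPM in amKR and 177 to 209 CPM in EV. On day 4, 5 of 9 were lower and 2 higher, at 849 to 990 CPM in amKR and 1430 to 1910 CPM in EV, while 5 of 14 primitive endoderm markers were higher and 0 lower, at 8650 to 9040 CPM in amKR and 7350 to 9580 CPM in EV. The part of these lists in the members' changes was not tested. The members' day 0 count was 6 without amKR replicate 1 or 3, or when those libraries were fitted alone. Cdx2 had 0, 0 and 0 counts in amKR on day 0, against 2, 3 and 11 in EV, at least 5.8-fold lower (edgeR adjusted p = 0.00375). Pitx1 had 1, 0 and 2 counts in amKR, against 16, 15 and 24 in EV, a ratio of 19.8 (6.43 to 99.0), and Barx1 had 0, 1 and 0 in amKR, against 4, 8 and 6 in EV, a ratio of 19.5 (3.07 to 810). All amKR libraries lay under all EV libraries for these 3 genes.

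On day 1 Lhx1 had 0, 0 and 2 counts in amKR, against 20, 21 and 31 in EV, a ratio of 36.2 (9.65 to 304). Barx1 had 1, 0 and 2 counts in amKR, against 20, 30 and 26 in EV, a ratio of 25.4 (8.38 to 126), and Pitx1 had 0 in every amKR library, at least 4.7-fold lower. Gbx2, a midbrain and hindbrain boundary gene, was the member higher in amKR, with 73.2, 49.5 and 72.6 CPM in amKR and 49.8, 39.5 and 27.3 CPM in EV, and its libraries overlapped (log2 change 0.74 ± 0.23, edgeR adjusted p = 0.0255).

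On day 4 Pitx1 had 2.39, 1.60 and 0.785 CPM in amKR and 28.4, 43.6 and 36.6 CPM in EV (log2 change −4.49 ± 0.38, edgeR adjusted p = 4.95e-09). Six3 had 1.19, 0.599 and 1.57 CPM in amKR and 11.3, 17.0 and 17.9 CPM in EV (log2 change −3.75 ± 0.40, edgeR adjusted p = 1.68e-07). Dlx3 had 8, 9 and 7 counts in amKR and 71, 13 and 30 in EV (log2 change −2.22 ± 0.51, edgeR adjusted p = 0.00452). Both genes higher in amKR were covered deeply. Hhex, an anterior endoderm and liver factor, had 16.3, 17.4 and 13.3 CPM in amKR and 8.67, 6.34 and 9.85 CPM in EV (log2 change 0.92 ± 0.26, edgeR adjusted p = 0.0169), and Meis2 had 307, 315 and 332 CPM in amKR and 220, 200 and 244 CPM in EV (log2 change 0.52 ± 0.09, edgeR adjusted p = 0.000221).

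In the Suz12 series no member was called between ddim and WT. By edgeR 0 of the 44 were called on days 0, 1 and 4, where 0%, 0.0623% and 0.145% of all genes were called, and DESeq2 called 0 on each day. Without WT replicate 1 a single member was called on day 1. Unadjusted p was under 0.05 for 4 members on day 0, 1 on day 1 and 1 on day 4, and the median log2 changes of the members were 0.005, −0.015 and −0.055. The change between day 0 and day 4 was called for 0 members by both tools (0% of all genes by edgeR), with 5 at an unadjusted p under 0.05. A p that misses the threshold does not show that the levels are alike. The members lower in EV on day 0 had counts near those of WT in ddim: Six3 had 11, 11 and 15 counts in ddim and 14, 6 and 14 in WT, Lhx1 had 8, 4 and 5 in ddim and 4, 3 and 5 in WT, and Lhx2 had 15, 17 and 13 in ddim and 14, 19 and 10 in WT. The ddim and WT libraries of these 3 genes overlapped.

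Against EV, 14 members were higher and 1 lower in ddim on day 0, where 11.7% of all genes were called (5.75% higher, 5.91% lower). There were 3 higher and 2 lower on day 1 (6.16% of all genes called, 3.3% higher and 2.87% lower), and 2 higher and 11 lower on day 4 (11.4%, 5.48% higher and 5.94% lower). Of the 14 primitive endoderm markers, 4 were higher and 1 lower in ddim on day 0, with a summed level of 703 to 778 CPM in ddim and 881 to 969 CPM in EV, and 6 were higher and 0 lower on day 1, at 2830 to 3150 CPM in ddim and 2340 to 2360 CPM in EV. Of 9 trophectoderm markers 4 were higher and 0 lower on day 1, at 653 to 730 CPM in ddim and 483 to 517 CPM in EV. On day 4, 4 of 9 trophectoderm markers were higher and 1 lower, at 798 to 947 CPM in ddim and 488 to 553 CPM in EV. Of 10 fibroblast and feeder markers, 1 was higher and 5 were lower on that day, at 1570 to 1580 CPM in ddim and 1590 to 1830 CPM in EV. Of 8 retinoic acid response genes 4 were higher and 0 lower, at 916 to 966 CPM in ddim and 424 to 510 CPM in EV. None of these genes was at 0 in ddim or EV on those days, and their part was not tested. The members' day 0 count was 7 when those libraries were fitted alone, and the day 1 count was 3 without ddim replicate 2 or 3 or EV replicate 2 or 3. Lhx1 on day 0 had 8, 4 and 5 counts in ddim and 0, 0 and 0 in EV, at least 5.7-fold higher. Irx5 had 9, 15 and 13 counts in ddim and 2, 1 and 0 in EV, a ratio of 12.4 (3.92 to 62.7), and Pax3 had 12, 10 and 7 in ddim and 2, 0 and 0 in EV, a ratio of 14.5 (3.68 to 126). The member lower in ddim was Meis1, with 4.42, 2.95 and 2.78 CPM in ddim and 10.1, 4.81 and 10.5 CPM in EV (log2 change −1.31 ± 0.29, edgeR adjusted p = 0.00125).

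On day 1 Lhx1 had 91, 85 and 83 counts in ddim and 34, 44 and 45 in EV (log2 change 1.06 ± 0.21, edgeR adjusted p = 0.000694). Msx1 had 121, 126 and 129 CPM in ddim and 86.5, 82.4 and 87.7 CPM in EV (log2 change 0.55 ± 0.10, edgeR adjusted p = 0.000328), and Dlx3 had 63, 95 and 92 counts in ddim and 70, 45 and 28 in EV, with overlap. The members lower in ddim were Pbx3 and Meis2, while Meis1, Meis3 and Tgif1 of the same group were not called. Pbx3 had 40.6, 41.3 and 42.1 CPM in ddim and 55.4, 64.2 and 55.3 CPM in EV (log2 change −0.50 ± 0.10, edgeR adjusted p = 0.000803). Meis2 averaged 227 ± 10.1 CPM in ddim and 265 ± 4.97 in EV (log2 change −0.23 ± 0.07, edgeR adjusted p = 0.0449).

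On day 4 Pax2 had 0, 0 and 1 counts in ddim and 11, 15 and 4 in EV, a ratio of 30.2 (5.02 to 1230). Six2 had 5, 8 and 11 counts in ddim and 27, 50 and 37 in EV (log2 change −2.24 ± 0.38, edgeR adjusted p = 4.08e-05), and Prrx1 had 28, 39 and 41 in ddim and 101, 93 and 85 in EV (log2 change −1.38 ± 0.24, edgeR adjusted p = 9.91e-05). Dlx3 had 37, 46 and 36 counts in ddim and 18, 16 and 16 in EV (log2 change 1.23 ± 0.32, edgeR adjusted p = 0.00703). Nkx2-9 had 20.6, 20.1 and 17.2 CPM in ddim and 11.5, 7.81 and 8.78 CPM in EV (log2 change 1.04 ± 0.22, edgeR adjusted p = 0.000867). The libraries of ddim and EV did not overlap for any of these 5 genes.

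Most members changed in level in WT cells of both series by day 4 of differentiation. In the Ezh2 series 12 of 41 members were higher and 3 lower on day 1 than on day 0, under the 46.7% of all genes called, and by day 4 there were 28 higher and 6 lower, where 57.4% of all genes were called, 29.8% higher. Fits of the compared libraries alone called 7 and 20 members on these days. In the Suz12 series 28 of 44 were higher and 8 lower on day 1, where 62.1% of all genes were called, 32.9% higher, and by day 4 there were 21 higher and 15 lower, near the 73.7% of all genes called. Over the same days the summed level of the 8 retinoic acid response genes was 48.0 to 53.6 CPM on day 0, 44.6 to 60.1 CPM on day 1 and 897 to 1040 CPM on day 4 in WT cells of the Ezh2 series. In WT cells of the Suz12 series it was 28.4 to 34.4 CPM on day 0, 1720 to 1820 CPM on day 1 and 693 to 815 CPM on day 4, and its part in the members' timing was not tested.

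In WT cells of the Ezh2 series Gbx2, Evx1 and Nkx2-9 were among the 12 members higher on day 1. The others were Six3, Six4, Lhx9, Meis1, Cdx2, En1, Pax6, Pax8 and Barx1, of which En1 had a ratio of 28.5 (4.72 to 1160) and Cdx2 of 22.6 (3.67 to 931). Gbx2 had 4.01, 0.682 and 2.04 CPM on day 0, 51.7, 57.1 and 45.8 CPM on day 1 and 2.71, 1.58 and 0.609 CPM on day 4 (log2 change on day 1 over day 0 of 4.50 ± 0.32, edgeR adjusted p = 4.14e-12). Evx1, a gene of the posterior primitive streak, had 0, 0 and 0 counts on day 0, 20, 12 and 13 on day 1 and 1, 0 and 2 on day 4. Nkx2-9 had 0, 0 and 0 counts on day 0, 13, 6 and 7 on day 1 and 10, 6 and 2 on day 4. Evx1 was at least 15-fold and Nkx2-9 at least 8.5-fold higher on day 1 than on day 0.

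Cdx1, Nkx6-2 and Gsc fell on day 1, and Cdx1, Gsc and En2 were lower on day 4 than on day 0. Cdx1, a posterior axis gene, had 26.1, 19.8 and 28.5 CPM on day 0, 6.29, 7.11 and 4.04 CPM on day 1 and 2.33, 1.18 and 0.609 CPM on day 4 (day 4 over day 0, log2 change −4.14 ± 0.37, edgeR adjusted p = 9.86e-11). Gsc had 11, 9 and 9 counts on day 0, 0, 0 and 1 on day 1 and 2, 0 and 0 on day 4. Nkx6-2 had 5.34, 6.60 and 7.91 CPM on day 0, 3.15, 4.09 and 1.79 CPM on day 1 and 2.33, 2.37 and 2.03 CPM on day 4. En2 had 5, 4 and 11 counts on day 0, 8, 10 and 5 on day 1 and 1, 2 and 2 on day 4.

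Lhx1, Prrx1 and Emx2 (a cortex and urogenital gene) rose by day 4 from no WT read on day 0. Their rises are given with day 0 set at 3 counts and cannot be ranked against the others. Lhx1 had 0, 0 and 0 counts on day 1 and 34, 37 and 36 on day 4, at least 31-fold higher than on day 0. Prrx1 had 0, 0 and 0 counts on day 1 and 17, 22 and 26 on day 4 (at least 19-fold), and Emx2 had 2, 1 and 1 counts on day 1 and 23, 16 and 22 on day 4 (at least 18-fold). Dlx5 and Barx1, with a single WT count on day 0 each, had ratios of 79.9 (14.0 to 3190) and 71.1 (12.4 to 2840). All 3 MEIS genes and Pbx3 rose by day 4. Meis1 had 2.00, 0.682 and 2.26 CPM on day 0, 5.17, 10.1 and 5.38 CPM on day 1 and 99.8, 84.4 and 92.0 CPM on day 4 (log2 change 5.78 ± 0.26, edgeR adjusted p = 3.14e-17).

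In WT cells of the Suz12 series Msx1, Irx3 and Meis1 rose on day 1. Msx1 had 1.88, 1.61 and 2.39 CPM on day 0, 111, 105 and 143 CPM on day 1 and 10.9, 9.63 and 12.6 CPM on day 4 (day 1 over day 0, log2 change 5.91 ± 0.19). Irx3 had 1.07, 0.803 and 1.06 CPM on day 0, 46.6, 42.1 and 33.2 CPM on day 1 and 10.0, 9.16 and 12.3 CPM on day 4 (5.33 ± 0.27). Meis1 had 2.95, 1.61 and 3.98 CPM on day 0, 90.9, 82.1 and 93.3 CPM on day 1 and 107, 91.2 and 105 CPM on day 4 (4.95 ± 0.19). Msx1 and Irx3 were thus highest on day 1 in the Suz12 series, whereas in WT cells of the Ezh2 series both were highest on day 4.

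Evx1 went the other way from the Ezh2 series, with 12, 12 and 10 counts on day 0, 0, 0 and 0 on day 1 and 9, 5 and 2 on day 4, at least 14-fold lower on day 1 than on day 0. Nkx1-2, a caudal epiblast gene, had 18, 18 and 6 counts on day 0, 0, 0 and 1 on day 1 and 2, 0 and 0 on day 4. Gsc had 33, 19 and 28 counts on day 0, 7, 6 and 5 on day 1 and 1, 1 and 2 on day 4. The day 0 libraries lay above the day 1 libraries for these 3 genes.

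Prrx1, Pitx1 and Meis1 were among the 21 members higher by day 4, as was Emx2, with a ratio of 39.3 (10.6 to 330). Prrx1 had 0, 0 and 0 counts on day 0, 2, 5 and 4 on day 1 and 58, 36 and 30 on day 4, at least 36-fold higher on day 4 than on day 0. Pitx1 had 1.34, 1.07 and 1.86 CPM on day 0, 3.20, 3.70 and 4.86 CPM on day 1 and 83.4, 77.8 and 80.7 CPM on day 4 (day 4 over day 0, log2 change 5.79 ± 0.24). In WT cells of the Ezh2 series Pitx1 averaged 1.60 ± 1.44 CPM on day 4. Cdx1 had 29.0, 26.0 and 22.0 CPM on day 0, 39.8, 47.2 and 29.8 CPM on day 1 and 0, 0 and 1 counts on day 4, a ratio of 330 lower on day 4 than on day 0 (58.7 to 13100). Gbx2 had 23.9, 30.8 and 47.2 CPM on day 0, 17.8, 13.7 and 24.5 CPM on day 1 and 0.699, 0.705 and 0.698 CPM on day 4 (day 4 over day 0, log2 change −5.54 ± 0.38, edgeR adjusted p = 4e-17).

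Several members are neighbours on the chromosome. Dlx1 and Dlx2 lie 9.4 kb apart, Dlx5 and Dlx6 9.2 kb, Dlx3 and Dlx4 15.2 kb, Six2 and Six3 55.0 kb, and Nkx2-9 and Pax9 78.5 kb. On day 4 of the Suz12 series Six3 and Six2 were both higher in EV, while of Nkx2-9 and Pax9 the gene called in EV of the Ezh2 series on day 4 was Nkx2-9. Of the Iroquois clusters, Irx1, Irx2 and Irx4 lie on chromosome 13 and Irx3, Irx5 and Irx6 on chromosome 8. Of these, Irx1, Irx2 and Irx5 were lower on day 0 in Suz12-series EV cells, and Irx3 was the Iroquois member called in EV of the Ezh2 series on days 0 and 1. Annotated antisense genes overlap 23 members, among them Six3, Lhx2, Irx3, Meis1, Pitx1, Pbx3, Pax6, En2 and Prrx1, and the strand setting of the counting was not given in the sources used here, so reads of such pairs may not be told apart.

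Other homeobox genes and cofactors were read from lists that do not include the members. Of 87 other homeobox genes, 35 were tested in the Ezh2 series, and EV over WT called 12 higher and 4 lower on day 0, 14 and 3 on day 1, and 14 and 5 on day 4. The smallest p values on days 0 and 4 belonged to Dbx2 (log2 change 3.82 ± 0.52 on day 0) and Esx1 (2.41 ± 0.24 on day 4). In the Suz12 series 40 were tested, and EV over WT called 3 higher and 9 lower on day 0, 2 and 3 on day 1, and 3 and 1 on day 4. Otx1 was lower (−3.15 ± 0.45) and Otx2, a forebrain gene also used by epiblast cells, higher (1.00 ± 0.15) on day 0 in Suz12-series EV cells. Of 25 homeodomain cofactors, EV over WT called 6 higher and 1 lower on day 0 in the Ezh2 series and 5 higher and 0 lower in the Suz12 series. Among them Pknox2 was higher (2.20 ± 0.26) and Pbx2 lower (−0.79 ± 0.11) in EV of the Ezh2 series, and Pbx2 was higher (0.48 ± 0.11) in EV of the Suz12 series. For amKR over WT 0 of the 35 other homeobox genes were called on day 0, 3 on day 1 and 1 on day 4, and for ddim over WT 0 of 40 on each day.

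The authors' deposited lists of changed gene symbols in the Ezh2 series, which state no test or threshold, held 8 members up on day 0 in their comparison of WT with the knockout, 13 up on day 1 and 16 up on day 4, and 1 down, on day 4. All 8, 11 of the 13 and 15 of the 16 were called higher in EV here, and the other 3 were Msx2 and Irx4 on day 1 and Lhx5 on day 4, of which Irx4 and Lhx5 were not tested. The member listed as down in the authors' deposited lists was Pax6, also called lower here. In their comparison of WT with amKR the authors' deposited lists held Six4 up on day 0, Pax8 up on day 1, and Msx1 up and Pax6 down on day 4. Of these 4, Pax8 was not called here: it had 27, 55 and 30 counts in amKR and 9, 19 and 18 in WT on day 1.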

How the data were processed

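RNA of 54 mouse embryonic stem cell samples was measured with QuantSeq 3′ libraries. The authors deposited raw counts per gene for each library, aligned to mm10 per the submitters' processing notes, and their own lists of changed genes as bare symbols. The aligner, counter, annotation and strand setting were not given in the sources used here. Gene names were matched to Ensembl identifiers for 55141 of 55487 genes.

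Each series of 27 libraries was fitted apart with edgeR 4.0.16 (R 4.3.3, limma 3.58.1): filterByExpr, TMM scaling, 1 mean per group, the quasi-likelihood F test and Benjamini-Hochberg adjustment over all genes tested. Calls need an adjusted p under 0.05, and the standard error is the log2 change over the root of F. Changes between days and between lines are contrasts of the same fit. Ratios of groups with 1 to 3 counts have exact 95% counting intervals. The fit was tested on simulated data with 200 changed genes. These were drawn from genes above a minimum WT level, so that test does not cover members near 0 counts. Alternatives were DESeq2 1.42.0, RLE size factors, no filter, the replicate block, only the libraries compared, a chromosome-median offset and each library left out.

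Members given in full are, per comparison, the 3 called members with the largest fitted rise and the 3 with the largest fitted fall whose higher group reached 1 CPM, and those called with the same sign in EV over WT in both series; other values named are examples or were chosen after they were seen. Where a group is at 0, a fitted change depends on the prior count. The members and all gene lists were chosen with earlier results of these data known. Promoter windows are from RefSeq GRCm38.p6. Values of some genes on the lists are not reported here.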

Additional observations from a re-analysis of the deposited data

Results flagged for a closer look

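The EV over WT change differed between the Ezh2 and Suz12 series for 21 of 47 members on day 0, 16 on day 1 and 11 on day 4. Of all genes, 20.1%, 15.9% and 15.4% differed on these days. These counts come from the joint fit chosen after the changes had been seen. Members called in opposite directions on day 0 had differences (Ezh2 minus Suz12 series, log2) of 8.43 for Six3, 5.50 for Lhx2, 3.60 for En2 and 5.19 for Barx1. The Six3 value depends on the prior count, since WT of the Ezh2 series had no Six3 count. On day 1 the differences were 8.38 for Lhx1, which was at 0 in WT of the Ezh2 series, 2.29 for Msx1 and 3.20 for Barx1. On day 4 the difference for Meis2 was −1.08.

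The EV over WT change differed between day 4 and day 0 for 4 of 41 members of the Ezh2 series. Since 12.4% of all genes were called, this count sets the members apart in no way. Irx3, at −2.45, and Meis2, at −1.15, turned from higher in EV on day 0 to lower on day 4. In the Suz12 series the change differed for 16 of 44 members, where 6.92% of all genes were called. Six3, at 4.47, and Barx1, at 2.12, turned from lower to higher.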

How the results depend on the processing

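Of the 300 called member results, none reversed under any alternative run. DESeq2 kept 285, no filter 285, the replicate block 296 and RLE size factors 298; the chromosome-median offset kept 152 of 159 and fits of only the libraries compared 219 of 225. Leaving out a library kept 1638 of 1920. Fits of only the libraries compared, which test fewer members, gave 8 members for EV over WT on day 0, 5 for amKR over WT on day 0, 6 for amKR over EV on day 0, and 7 and 20 for WT on days 1 and 4 over day 0 in the Ezh2 series, and 7 each for EV over WT and ddim over EV on day 0 in the Suz12 series. Without the filter, amKR over WT called 1 member on day 1 and 1 in its change between day 4 and day 0. Leaving out single libraries gave 1 to 3 members for amKR over WT on day 0, 0 to 2 on day 4, 6 to 10 for amKR over EV on day 0, 1 to 7 for Suz12 EV over WT on day 1, 0 to 1 for ddim over WT on day 1 and 3 to 5 for ddim over EV on day 1. It gave 10 to 15, 13 to 16 and 16 to 22 for Ezh2 EV over WT on days 0, 1 and 4. The cause of these shifts was not tested. Samples share only a replicate number: every same-number correlation was over 0.1 in 2 of 36 Ezh2 group pairs and 0 of 36 Suz12 pairs. With the replicate block, Ezh2 EV over WT called 13, 18 and 21 members and Suz12 EV over WT 15, 6 and 9. Many members had under 10 counts per library on day 0, which limits their precision.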
